A study of Mus musculus with 24 samples.

Results

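H3K4me3 was followed along the XX supporting cell lineage of the mouse gonad, from XX progenitor cells at embryonic stage E10.5 to pregranulosa cells at E13.5. Autosomal regions of H3K4me3 enrichment in these populations were compared, 40878 in XX progenitor and 43367 in pregranulosa cells. Together these are 84245 of the 200512 autosomal regions in the 8 H3K4me3 and H3K27me3 peak lists of the series. A region of the E10.5 list was called kept if it shared at least 1 bp with a region of the E13.5 list and lost otherwise. An E13.5 region with no overlap in the E10.5 list was called gained. Regions within 2 kb of an annotated transcription start site (TSS) were separated from regions elsewhere.

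Progenitors were XX cells of Sf1-eGFP embryos, sorted for green fluorescence driven by the Sf1 (Nr5a1) gene. Pregranulosa cells, called granulosa cells in the sample labels, were sorted from XX embryos carrying the TESM-CFP reporter (TESMS-CFP in the study's methods). All groups shared the mixed C57BL/6 x CD1 background, were otherwise unmodified, and came from gonads dissected away from the mesonephros. XY progenitors (Sf1-eGFP, E10.5) and Sertoli cells (Sox9-CFP, E13.5) served for comparison. Stage and reporter change together, so development cannot be told apart from a difference between the sorts.

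Each population had 2 replicates of each immunoprecipitation, which the authors pooled into 1 peak list. The spread between replicates therefore cannot be given, and populations were compared without p-values. Ranges in parentheses are 95% Clopper-Pearson (exact binomial) intervals for counting error alone. Neighboring regions and regions of the same gene are not independent, which these intervals do not cover. The lists record presence and carry no height. The XX progenitor list rests on 49254553 tags, the XY progenitor list on 10162534 and the Sertoli list on 31104760, and the depth of the pregranulosa list is unknown. The XX progenitor and pregranulosa lists nevertheless cover similar lengths of the autosomes, 86.9 and 87.2 Mb.

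H3K4me3 is the trimethyl mark that Trithorax-type methyltransferases place on histone H3 around active and poised promoters. Promoters rich in CpG dinucleotides attract these enzymes and tend to carry the mark in many cell types, whereas CpG-poor promoters and distal elements acquire it in fewer cell types. In the fetal ovary, progenitors that do not express Sry become pregranulosa cells under WNT4 and RSPO1 signaling and the forkhead factor FOXL2, and later surround the oocytes.

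The sequences just before 4 gene starts show the contrast that runs through the promoter results. They are taken from the mm9 (NCBIM37) genome, written 5′ to 3′ on the strand of the gene, with CpG dinucleotides in capitals, and none overlaps an annotated exon. Foxl2 (chr9:98855776-98856025, + strand) and Wnt4 (chr4:136833154-136833403, + strand) kept H3K4me3. Ecm1 (chr3:95543493-95543742, - strand), an extracellular matrix glycoprotein, lost it, and Nr0b2 (chr4:133109041-133109290, + strand), a nuclear receptor without a DNA-binding domain, gained it.
Foxl2: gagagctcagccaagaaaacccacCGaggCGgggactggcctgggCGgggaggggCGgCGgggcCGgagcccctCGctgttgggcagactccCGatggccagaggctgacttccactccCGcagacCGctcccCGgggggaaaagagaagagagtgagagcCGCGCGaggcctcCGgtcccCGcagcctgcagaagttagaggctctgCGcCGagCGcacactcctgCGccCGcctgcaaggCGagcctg
Wnt4: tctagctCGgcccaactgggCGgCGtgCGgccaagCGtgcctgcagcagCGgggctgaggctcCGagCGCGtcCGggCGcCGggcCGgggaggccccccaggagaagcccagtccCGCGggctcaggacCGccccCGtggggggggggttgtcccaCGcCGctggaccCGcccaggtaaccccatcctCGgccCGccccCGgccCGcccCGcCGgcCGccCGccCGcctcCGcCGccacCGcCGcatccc
Ecm1: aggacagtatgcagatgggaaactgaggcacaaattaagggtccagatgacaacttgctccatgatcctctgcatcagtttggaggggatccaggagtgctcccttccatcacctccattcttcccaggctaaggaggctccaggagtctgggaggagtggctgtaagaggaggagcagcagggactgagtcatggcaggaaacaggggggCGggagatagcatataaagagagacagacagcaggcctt
Nr0b2: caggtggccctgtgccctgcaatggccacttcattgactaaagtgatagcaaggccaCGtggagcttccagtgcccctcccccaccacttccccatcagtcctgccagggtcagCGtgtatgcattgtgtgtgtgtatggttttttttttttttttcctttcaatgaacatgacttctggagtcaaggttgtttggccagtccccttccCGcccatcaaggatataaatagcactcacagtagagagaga
The 250 bases hold 22 CpG dinucleotides in Foxl2 and 33 in Wnt4, but 1 in Ecm1 and 3 in Nr0b2. The same contrast was seen over all protein-coding genes of the autosomes. The median number of CpG dinucleotides in the 250 bases before the start was 15 for the 13973 genes that kept promoter H3K4me3. It was 3 for the 309 genes that lost it, 3 for the 382 that gained it and 2 for the 6754 marked at neither stage.

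The second set of sequences comes from gained regions and shows the letters CAAGGTCA, a recognition sequence of the nuclear receptor NR5A1, in capitals with the bases around it. An exact occurrence is a match of letters and does not show binding, by NR5A1 or by any other factor. Among gained regions nearest to genes of the gonad lists and a few genes chosen after their values were seen, the first 3 shown are those with the match in the central 300 bp. The Gata4 sequence (chr14:63961352-63961411, - strand) is intergenic, in a gained region 70.8 kb from the start of Gata4, a zinc finger factor of the early gonad. The Inhbb sequence (chr1:121328329-121328388, - strand) is intergenic, in a gained region 9.60 kb from the start of Inhbb, an inhibin and activin subunit. The Nr0b2 sequence (chr4:133119342-133119401, + strand) is intergenic, in a gained region 10.1 kb from the start of Nr0b2. The Kitl sequence (chr10:99489562-99489621, + strand) lies in an intron of Kitl, which encodes KIT ligand, inside the widest gained region near that gene but outside the central 300 bp.
Gata4: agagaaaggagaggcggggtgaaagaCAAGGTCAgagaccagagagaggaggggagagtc
Inhbb: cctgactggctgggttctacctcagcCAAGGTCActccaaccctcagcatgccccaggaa
Nr0b2: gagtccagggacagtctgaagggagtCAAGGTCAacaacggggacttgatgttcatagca
Kitl: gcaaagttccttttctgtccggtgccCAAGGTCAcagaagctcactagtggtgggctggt
The shares of gained, kept and lost regions with these letters, given with the distal regions, count the central 300 bp only and so do not count the Kitl match.

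H3K4me3 at TSSs was largely the same at both stages. Of 16820 E10.5 regions at a TSS, 15522 (92.3%, 91.9 to 92.7) were kept and 1298 (7.72%, 7.32 to 8.13) were lost. Of 17123 E13.5 regions at a TSS, 1507 (8.80%, 8.38 to 9.24) were gained. Regions elsewhere changed far more often. Of 24058 E10.5 regions elsewhere, 11095 (46.1%, 45.5 to 46.8) were lost, and of 26244 E13.5 regions elsewhere, 13170 (50.2%, 49.6 to 50.8) were gained. From XY progenitors to Sertoli cells 10.3% were lost at TSSs and 2249 of 16704 regions (12.9 to 14.0%) were gained there, and elsewhere 64.7% were lost and 67.2% gained. The XY values are higher in each class, but the XY progenitor list is the shallowest of the 3 H3K4me3 lists with known depth, and whether depth has a part in this was not tested.

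**Figure D1:**
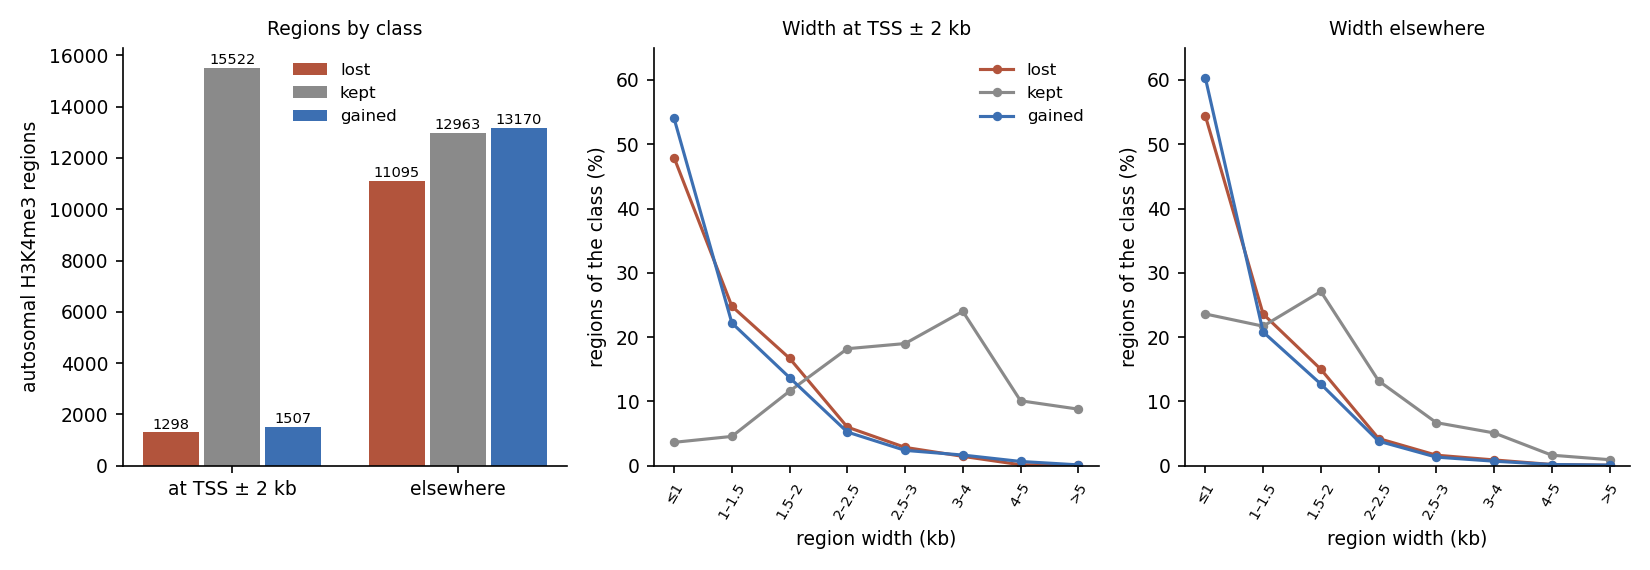
Left, number of autosomal H3K4me3 regions (y axis) lost, kept or gained from XX progenitor to pregranulosa cells, at TSS ± 2 kb and elsewhere (x axis). Middle and right, share of each class in percent (y axis) by region width in kb (x axis), where kept regions are measured in the E10.5 list. The narrowest bin holds the largest share of lost and gained regions, and kept regions are spread over wider bins. The bins above 3 kb are broader than those before them.

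Changing regions were narrow and poor in CpG. The narrowest region that the peak calling normally returns is 1001 bp, and 54.0% of gained regions at TSSs and 60.3% of those elsewhere had exactly this width. The corresponding shares were 47.9% and 54.3% for lost regions, but 3.64% and 23.6% for kept regions. The median width of kept regions in the E10.5 list was 2804 bp at TSSs and 1529 bp elsewhere. Median CpG density at TSSs was 3.33 per 100 bp in kept regions, 1.59 in lost regions and 1.28 in gained regions. Elsewhere it was 1.70 in kept, 1.26 in lost and 1.11 in gained regions. Few lost regions had an E13.5 region within 1 kb, 12.5% of those at TSSs and 5.71% of those elsewhere. Within 5 kb these shares were 41.6% and 29.3%. Only 41 kept regions overlapped by 100 bp or less, and only 60 lost regions had a gap of 100 bp or less to an E13.5 region. Few calls therefore lie near the limit of the overlap rule. These counts cannot show how many regions lie near the threshold of the peak calling.

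The width of kept regions differed little in the median and went both ways. The summed width of the overlapping E13.5 regions was a median of 0.991 times that of the E10.5 region at TSSs and 0.998 times elsewhere. The 10th to 90th percentiles of this ratio were 0.719 to 1.36 at TSSs and 0.603 to 1.54 elsewhere. At TSSs 417 kept regions were at least 2-fold wider and 252 shrank to 0.5 of their width or less, and elsewhere 628 and 597.

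Marked promoters of the genes that direct gonad and ovary development kept H3K4me3, as did nearly all marked protein-coding promoters. A promoter was the 4001 bp window around the start of a gene, and its cover is the number of these bases inside H3K4me3 regions. Among all 34653 annotated autosomal genes, 695 (2.01%) lost promoter H3K4me3 and 830 (2.40%) gained it. Among the 21418 protein-coding genes these were 309 (1.44%) and 382 (1.78%). Of the 14282 protein-coding promoters marked at E10.5, only 2.16% (1.93 to 2.42) lost the mark. Counts of kept promoters in the gene lists are to be read against this share. None of the 16 genes of the pregranulosa and ovary list lost or gained promoter H3K4me3, 15 being marked at both stages. Foxl2 was covered over 4001 bp at both stages, and so was Fst, the activin antagonist follistatin. Cover was 3329 bp and then 3471 bp at Wnt4, 3851 and 3869 bp at Rspo1, and 2708 and 2977 bp at Bmp2. The remaining gene of the list, Runx1, a transcription factor of the Runt family, had no H3K4me3 at the gene start used here at either stage, while 3 of its 5 annotated starts were marked at both.

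H3K27me3, the Polycomb mark, did change at several of these promoters. Its cover was 4001 bp in XX progenitors and 0 bp in pregranulosa cells at Wnt4, Rspo1 and Bmp2, while Foxl2 was covered over 4001 bp at both stages. The study, however, reports loss of H3K27me3 at the Foxl2 start and gene body in pregranulosa cells. It states that a promoter window of about this size does not show that loss. Of the 16 genes, 14 carried some H3K27me3 at E10.5 and 9 at E13.5, against 4894 and 4723 of all 21418 protein-coding genes. The 16 genes of the early gonad list all kept H3K4me3, among them Nr5a1 (3063 and then 2869 bp), Gata4 (3702 and 3292 bp), Wt1 and Emx2 (4001 bp at both stages). For the early gonad list, the number of promoters with H3K27me3 was 10 at E10.5 and 5 at E13.5.

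The Wnt pathway also kept its promoter H3K4me3, at 32 of 33 genes. Cover at Lef1, a transcriptional effector of the pathway, was 3747 bp and then 3285 bp. At its feedback inhibitor Axin2 it was 2958 and 2583 bp, and at the R-spondin receptor Lgr5 2954 and 3193 bp. The gene start of Ctnnb1, which encodes β-catenin, was unmarked at both stages, while 5 of its 13 annotated starts were marked at both. All 23 matched genes of the TGF-beta family kept the mark, as did all 12 housekeeping genes.

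Promoters of testis genes mostly kept H3K4me3 in pregranulosa cells as well. Of 15 genes of the Sertoli cell list, 9 kept promoter H3K4me3, 2 lost it, 1 gained it and 3 were unmarked. Sox9, the SRY-box factor that directs Sertoli cell differentiation, was covered over 4001 bp at both stages. Cover of Dmrt1 was 3109 bp and then 3148 bp, and that of the growth factor gene Fgf9 was 2901 and 2313 bp. The 2 lost promoters were Hsd17b1, a steroid dehydrogenase (1137 bp and then 0 bp), and Col9a3, a collagen chain (1757 bp and then 0 bp). In Sertoli cells these promoters were covered over 1947 and 2106 bp. At Col9a3, 1 of 6 annotated starts was still marked in pregranulosa cells. The gained promoter was Mro, which is also covered in Sertoli cells (0 bp and then 2480 bp in XX cells, 2407 bp in Sertoli cells). Of the 5 annotated starts of Mro, 2 were already marked in XX progenitors.

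Genes with sex-specific expression at E13.5, as listed by the study from earlier expression profiling, were rarely lost or gained. Of 1102 matched pregranulosa-specific genes, 7 lost promoter H3K4me3 (0.635%, 0.256 to 1.30) and 18 gained it (1.63%, 0.971 to 2.57). Of 1337 matched Sertoli-specific genes, 11 lost it (0.823%, 0.411 to 1.47) and 20 gained it (1.50%, 0.916 to 2.30). The shares gained are near those over all protein-coding genes. The lists differed in how the cover of kept promoters moved. Among pregranulosa-specific genes the median change was 40 bp, with 565 promoters covered over more bases at E13.5 and 396 over fewer. Among Sertoli-specific genes it was -86 bp, with 475 over more and 714 over fewer. Over all kept protein-coding promoters the median was -29 bp. These medians are small against the window of 4001 bp, and the difference between the lists was not tested.

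Of the 18 gained pregranulosa-specific promoters, 3 are given as examples chosen after their values were seen. Cover at E13.5 was 1918 bp at Lgals9, a galectin, 1001 bp at Il1r1, an interleukin-1 receptor, and 2200 bp at Oasl2, an interferon-induced gene. None had any cover at the gene start in XX progenitors. Il1r1 and Oasl2 were also covered in Sertoli cells, over 1001 and 1549 bp. Another start of Il1r1 was already marked at E10.5. Among the 7 lost, Foxp1, Hcfc2, Kcnip1, Lgals8, Lsp1 and Sema3a kept the mark at another annotated start, and at the gene start itself Lgals8 had only 18 bp, Lsp1 58 bp and Hcfc2 140 bp at E10.5. Sycp3, a component of the meiotic synaptonemal complex, lost it at both of its starts (1001 bp and then 0 bp). Over all protein-coding genes that lost the mark at the gene start, 50 of 309 (16.2%, 12.3 to 20.8) had another start marked at E13.5. Of those that gained it, 58 of 382 (15.2%, 11.7 to 19.2) had another start marked at E10.5.

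Of the 16 genes of the Notch pathway list, 2 lost promoter H3K4me3 (12.5%, 1.55 to 38.3), against 1.44% of all protein-coding genes, and the difference from other lists was not tested. Notch1 had a cover of 1294 bp in XX progenitors and 0 bp in pregranulosa cells, and the endothelial receptor gene Notch4 had 1512 and then 0 bp. Both have other annotated starts that were marked at E13.5, 3 of 13 for Notch1 and 5 of 11 for Notch4. The other 14 genes of the list, including Notch2, Jag1, Hes1 and Hey1, kept the mark.

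The largest losses of promoter H3K4me3 were in Hox clusters, the arrays of homeobox genes that set position along the body axis. Of the 39 Hox promoters, 34 were covered over fewer bases in pregranulosa cells than in XX progenitors, 2 over more and 3 over the same number. The median cover was 4001 bp and then 2325 bp. Among the 35 kept Hox promoters, the median change was -908 bp, against -29 bp over all kept protein-coding promoters. Hoxb3, Hoxa11 and Hoxc12 lost the mark at the gene start, with a cover of 4001, 2784 and 886 bp in XX progenitors, and Hoxc11 gained 722 bp. At Hoxb3, 3 of 4 annotated starts were still marked at E13.5. Hoxb8 fell from 4001 bp to 154 bp, Hoxc4 from 4001 to 238 bp and Hoxd4 from 4001 to 888 bp.

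**Figure D2:**
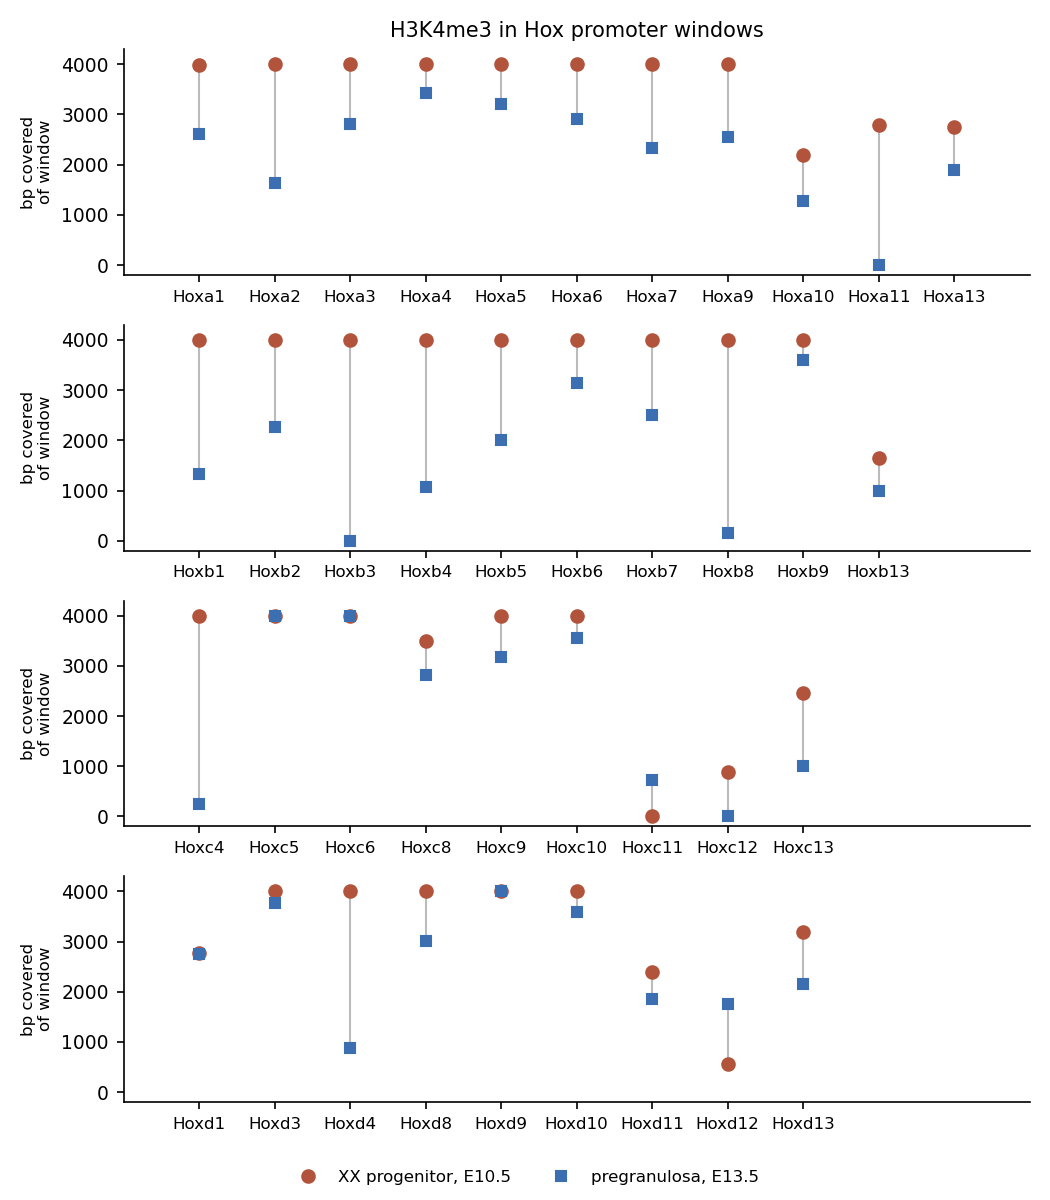
Bases of the 4001 bp promoter window inside H3K4me3 regions (y axis) for each Hox gene (x axis, 1 panel per cluster) in XX progenitor (circles) and pregranulosa cells (squares), 1 pooled list each. Most squares lie below their circles, and Hoxc11 and Hoxd12 are the genes with the reverse order.

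At E10.5, single regions spanned many Hox genes, and at E13.5 they were broken into short ones. The widest region was 50567 bp in Hoxa, 62290 bp in Hoxb, 53971 bp in Hoxc and 31144 bp in Hoxd in XX progenitors. In pregranulosa cells it was 3747, 5982, 11969 and 6712 bp. H3K4me3 covered 86.3% of Hoxa at E10.5 and 34.1% at E13.5, 61.3% and 24.2% of Hoxb, 69.8% and 48.5% of Hoxc, and 74.8% and 51.8% of Hoxd. H3K27me3 cover of Hoxa was 43.3% and then 100%, of Hoxb 47.1% and 89.0%, and of Hoxd 50.7% and 93.1%. Hoxc differed, with 68.1% and then 67.4%. In XY cells the median Hox promoter cover was 3603 bp at E10.5 and 2039 bp in Sertoli cells, so shortening of H3K4me3 was seen in both lineages. In Sertoli cells, H3K27me3 covered 96.3% of Hoxc, against 67.4% in pregranulosa cells.

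Several of the most widely covered lost promoters were also homeobox genes or lie in a Hox cluster. The 10 with the largest cover at E10.5 were 5730596B20Rik, which lies in Hoxa, and Hoxb3 (4001 bp each), Ecm1 (3645 bp), Igsf5 (3412 bp), Uncx (3336 bp), Ddr2 (3311 bp), 4933428G20Rik (3220 bp), Cdx1 (2902 bp), Mc2r (2885 bp) and Hoxa11 (2784 bp). Uncx and Cdx1 are homeobox transcription factors of the early embryo, Ddr2 is a collagen receptor and Mc2r is the receptor for adrenocorticotropic hormone. Ecm1 was marked at all 6 of its annotated starts at E10.5 and at none at E13.5. Of the 309 lost protein-coding promoters, 85 (27.5%, 22.6 to 32.8) carried H3K27me3 at E10.5 and 108 (35.0%, 29.6 to 40.6) at E13.5. Of the 382 gained promoters these were 53 (13.9%, 10.6 to 17.8) and 57 (14.9%, 11.5 to 18.9). Of the 13973 kept promoters, 32.1% (31.4 to 32.9) carried it at E10.5 and 29.6% (28.8 to 30.3) at E13.5.

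The gained promoters with the largest cover were dominated by repeats. Of the 10 with the largest cover at E13.5, 7 are predicted genes in a cluster of 12 at chr9:3000922-3038316, where 91.8% of 36-base words occur more than once within the cluster. H3K4me3 covered 5834 bp of this cluster in XX progenitors and 34387 bp in pregranulosa cells, and 3453 bp in XY progenitors and 31924 bp in Sertoli cells. Reads cannot be placed with certainty among such copies, and without this cluster 1503 regions at TSSs and 823 genes were gained. The other 3 were 2200002J24Rik (3372 bp), 6030469F06Rik (3254 bp) and Crybb1, a lens crystallin gene (2948 bp). The next were Tmem72 (2898 bp), Cacna1d (2818 bp), Wfdc6a (2803 bp), Serpina3a (2783 bp), Dhx32 (2778 bp) and Trim50 (2705 bp). Other annotated starts of Dhx32 (7 of 9) and Cacna1d (1 of 2) were already marked in XX progenitors. Farther down were Shbg, sex hormone-binding globulin (2688 bp), Nr0b2 (2682 bp) and Aldh3b1 (2639 bp). The last 3 were chosen after their values were seen, and were also covered in Sertoli cells, over 3293, 2279 and 3528 bp.

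Among kept promoters, the cover of Lgals7 rose from 180 to 3282 bp, Cst8, a cystatin, from 24 to 2696 bp, and Slc17a9, a vesicular nucleotide transporter, from 1253 to 3641 bp. Gm11168 and Gm10715 of the repeat cluster were also among the 6 largest rises. The largest falls outside the Hox genes were Evx2, a homeobox gene next to Hoxd (4001 to 595 bp), and Grrp1 (3370 to 626 bp).

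Few promoters of markers of other cell types were lost or gained, but cover was lower at many kept ones. Of 17 germ cell genes, 9 were marked at E10.5 and 10 at E13.5, with a summed cover of 22475 and 22479 bp. Nanog and Stra8 gained a region of 1001 bp each, Sycp3 lost one, and Ddx4, Mael and Pou5f1 were at 0 bp at both stages. Dazl (2064 and 2134 bp), Dnd1 (1001 and 1844 bp), Dppa3 (1260 and 1254 bp), Kit and Prdm1 were marked at both. Of 13 endothelial genes, 8 were marked at each stage (18897 and 16677 bp), Cdh5 gaining and Emcn losing 1001 bp, and Pecam1, Tek and Tie1 were at 0 bp at the gene start. Other starts of Pecam1 were marked in pregranulosa cells only (5 of 7), and other starts of Tie1 in XX progenitors only (2 of 3). The part of other cell types in the changes described here was not tested. Of 12 blood genes, 4 were marked at each stage (7669 and 6481 bp), and Ptprc and Cd68 were at 0 bp. Of 14 interstitial and steroidogenic genes, 13 were marked at each stage (36167 and 34550 bp). Cyp11a1, the enzyme that opens steroid synthesis, lost 1001 bp and Cyp17a1, a later enzyme of androgen synthesis, gained 1253 bp. Of 15 neural and muscle factors, 15 and then 14 were marked (36496 and 28556 bp). Of the 14 kept, 12 were covered over fewer bases and 2 over more, with a median change of -463 bp. Of 13 genes of the mesonephros and coelomic epithelium, 12 were marked at each stage (37295 and 31386 bp). Of these, 10 were covered over fewer bases and none over more, with a median change of -376 bp, against -29 bp over all kept protein-coding promoters.

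Lost regions were found more often in XY progenitors than in Sertoli cells, and gained regions more often in Sertoli cells. Of lost regions elsewhere, 24.1% (23.3 to 24.9) were also present in XY progenitors and 11.2% (10.6 to 11.8) in Sertoli cells. Of gained regions elsewhere, 6.52% (6.11 to 6.96) were present in XY progenitors and 31.5% (30.7 to 32.3) in Sertoli cells. At TSSs, 26.9% of lost regions were in XY progenitors and 16.6% in Sertoli cells, against 7.37% and 37.4% of gained regions. Kept regions were shared far more, at 93.2% (92.8 to 93.6) in XY progenitors and 94.6 to 95.3% (interval) in Sertoli cells at TSSs, and at 56.5% and 69.1% elsewhere. Most lost and gained regions were therefore absent from both XY lists, and these shares also depend on the depth of those lists.

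**Figure D3:**
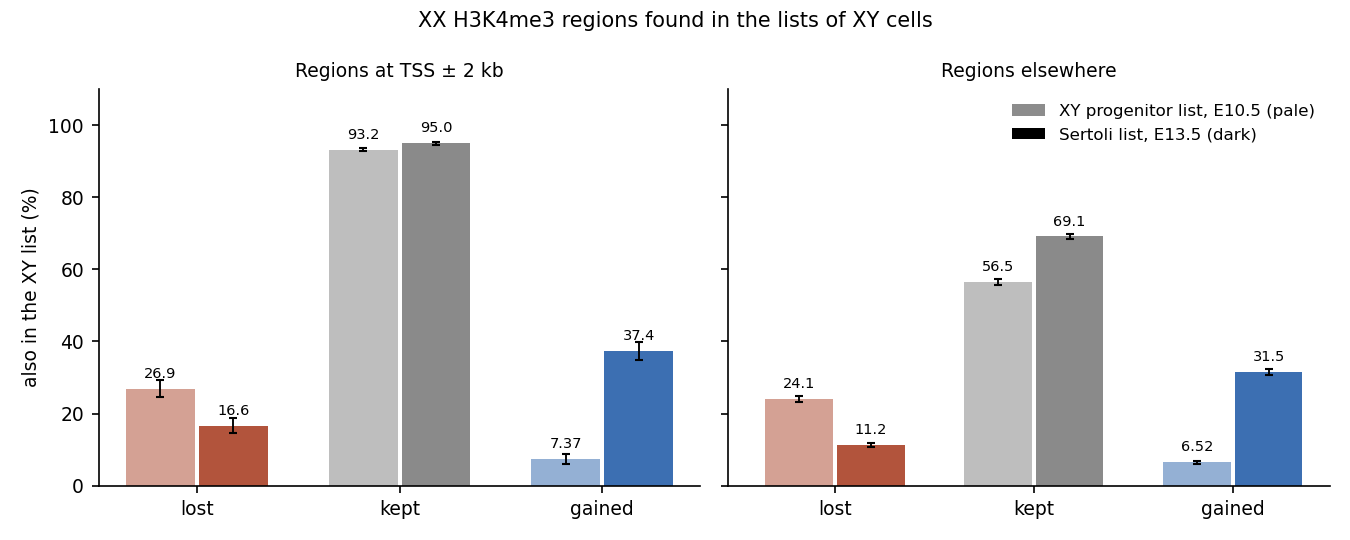
Share of XX H3K4me3 regions of each class (x axis) that overlap a region in the XY progenitor list (pale bars) or the Sertoli list (dark bars), in percent (y axis), at TSS ± 2 kb (left) and elsewhere (right). Error bars are 95% exact binomial intervals. Lost regions are found more often in XY progenitors, and gained regions more often in Sertoli cells.

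H3K27me3 was more frequent at E13.5 than at E10.5 over lost, gained and kept regions elsewhere, along with an increase in its autosomal cover from 82.2 to 130 Mb. It overlapped 10.7% of lost regions elsewhere in XX progenitors and 19.5% in pregranulosa cells. For gained regions elsewhere these were 4.18% and 9.07%, and for kept regions elsewhere 20.5% and 27.3%. At TSSs, lost regions went from 21.0% to 25.9%, and kept regions from 33.4% to 31.2%. Gained regions at TSSs showed 8.03% (6.71 to 9.52) and 10.2% (8.74 to 11.9), with overlapping intervals.

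Regions of pregranulosa cells that Sertoli cells lacked, gained or kept, were nearest to pregranulosa-specific genes more often than to Sertoli-specific genes. Each region was given to the protein-coding gene with the nearest start. Of the 9019 regions elsewhere that were gained and not in the Sertoli list, 14.9% (14.1 to 15.6) were nearest to a pregranulosa-specific gene and 7.94% (7.39 to 8.52) to a Sertoli-specific gene. Of the 4151 gained regions that Sertoli cells shared, 10.6% (9.63 to 11.5) and 15.1% (14.0 to 16.2) were. Regions that XX cells lost but Sertoli cells held, 1240 in number, showed 9.19% (7.64 to 10.9) and 16.4% (14.4 to 18.5). Pregranulosa-specific genes make up 5.04% of protein-coding genes and Sertoli-specific genes 6.24%. These are shares of genes, so genes with long flanks weigh less in them than among regions. Kept regions elsewhere showed the same order, with 13.2% (12.1 to 14.2) and 8.24% (7.41 to 9.12) where Sertoli cells lacked them and 9.76% (9.15 to 10.4) and 10.8% (10.1 to 11.4) where they shared them. The order was therefore not particular to gained regions, nor to regions that pregranulosa cells held. The intervals of the pregranulosa-specific share do not overlap between gained regions absent from and present in Sertoli cells, but the difference was not tested against replicates.

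**Figure D4:**
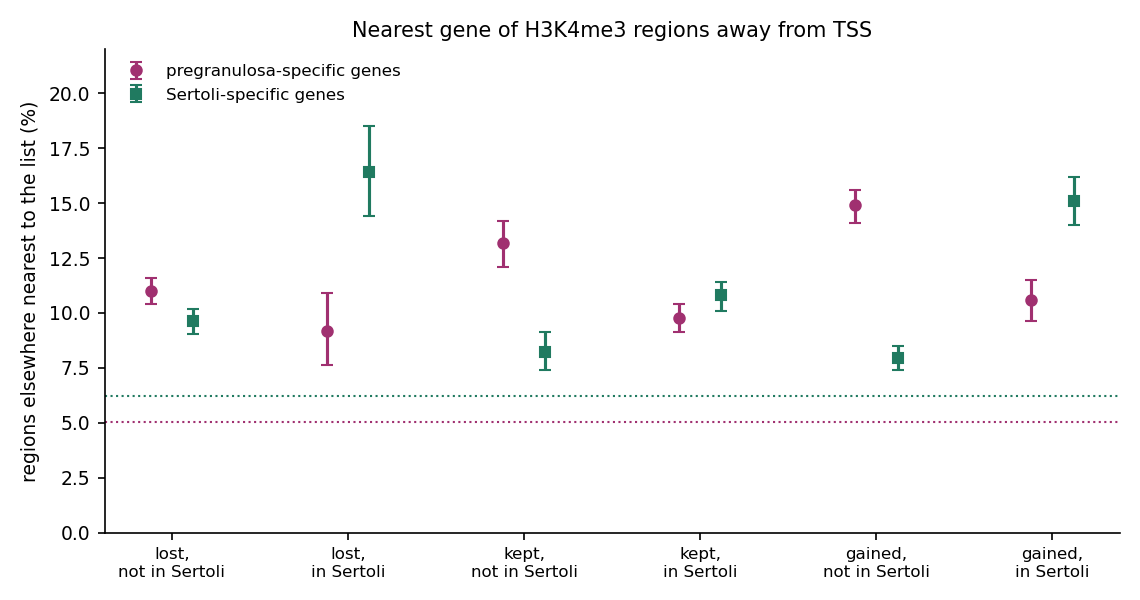
Share of H3K4me3 regions elsewhere whose nearest protein-coding gene is pregranulosa-specific (circles) or Sertoli-specific (squares), in percent (y axis), by class and presence in the Sertoli list (x axis). Bars are 95% exact binomial intervals, and dotted lines are the shares of these genes among protein-coding genes (5.04% and 6.24%). The order of the lists is reversed between gained regions absent from and present in Sertoli cells.

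The same order was seen at TSSs, but less clearly for kept regions. Kept regions at TSSs that Sertoli cells lacked showed 6.78% (5.14 to 8.76) and 4.65% (3.29 to 6.35), with overlapping intervals. Those they shared showed 7.74% (7.31 to 8.18) and 9.18% (8.72 to 9.66). Unlike elsewhere, the pregranulosa-specific share of kept regions was not higher where Sertoli cells lacked them. Of gained regions at TSSs that Sertoli cells lacked, 11.5% (9.58 to 13.8) were nearest to a pregranulosa-specific and 5.08% (3.77 to 6.69) to a Sertoli-specific gene. Of lost regions at TSSs that Sertoli cells held, 1.86% (0.509 to 4.69) and 12.1% (8.05 to 17.2) were. Lost regions at TSSs that Sertoli cells lacked showed 6.37% (4.99 to 7.99) and 8.03% (6.48 to 9.81), the reverse of the order elsewhere.

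Gained regions lay around several ovary genes, in numbers to be read against the 50.2% gained and 46.1% lost over all regions elsewhere. Bmp2, a BMP ligand of pregranulosa cells, had 12 gained, 4 lost and no kept regions nearest to it, and 1 of the gained regions was in the Sertoli list. Kitl had 8 gained, 2 lost and 5 kept regions, and 4 of those gained were in the Sertoli list. The widest gained region near it spans 5779 bp at chr10:99487176-99492954, in an intron of Kitl 11.8 kb from its start, and was absent from both XY lists. Irx3, a homeobox gene of pregranulosa cells, had 12 gained, 6 lost and 11 kept regions, and many of them lie in introns of the neighboring gene Fto. Lef1 had 8 gained, 3 lost and 10 kept regions. Runx1, unmarked at the start used here, had 11 gained, 5 lost and 3 kept regions. Magi1, a scaffold protein of cell junctions, was chosen after its counts were seen, and had 22 gained, 9 lost and 10 kept regions.

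Wnt4 had 2 gained, 2 lost and 4 kept regions, Rspo1 had 1 lost region only, and Foxl2 had 1 kept region only. Over the 16 genes of the pregranulosa and ovary list, 56 regions were gained, 33 lost and 44 kept, and 8 genes had more gained than lost regions and 4 fewer. The share gained was 56.0% (45.7 to 65.9) of 100 E13.5 regions and the share lost 42.9% (31.6 to 54.6) of 77 E10.5 regions, both intervals holding the shares over all regions elsewhere. The Sertoli cell list showed 38 gained, 23 lost and 33 kept regions over 15 genes, with 7 genes gaining more than they lost and none losing more, which is 52.8% (40.7 to 64.7) gained and 41.1% (28.1 to 55.0) lost. The early gonad list showed lower shares, 37.3% (27.9 to 47.4) gained and 30.9% (21.9 to 41.1) lost. Of the 38 gained regions of the Sertoli cell list, 22 were also present in Sertoli cells. This held for 13 of the 56 of the pregranulosa and ovary list and 10 of the 38 of the early gonad list. Over all gained regions elsewhere the share present in Sertoli cells was 31.5% (30.7 to 32.3), and the difference between lists was not tested. Sox9 had 8 gained, 8 lost and 13 kept regions.

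Some regulators had many lost and few gained regions. Nr2f1, an orphan nuclear receptor, had 17 lost, 5 kept and 1 gained region. Foxc2, a forkhead factor of mesoderm, had 12 lost and 1 gained region, and Hmga2, a chromatin protein of embryonic cells, 9 lost and none gained. Zmiz1, a transcriptional co-regulator, had 20 lost and 2 gained regions. These genes were chosen after their counts were seen.

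The 6 widest lost regions elsewhere were 5692 to 6523 bp wide. The widest, at chr1:38600105-38606627, lies in an intron of Aff3, 118 kb from its start, and was present in XY progenitors but not in Sertoli cells. The others were nearest to Kcnk5, Pdgfrb, Gapvd1, Ccdc34 and Smug1. The 6 widest gained regions were 5976 to 7101 bp wide and were nearest to Fam110c, Rcvrn, Nr2e3, Sema4b, Zfp41 and Lzts1. The widest of these, at chr12:31772938-31780038, is intergenic, and was present in Sertoli cells and absent from XY progenitors.

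The letters of the NR5A1 motif were more frequent in gained than in kept or lost regions, and the difference was not tested against replicates. The central 300 bp of each region were searched on both strands. CAAGGTCA was found in 8.61% (8.14 to 9.10) of gained regions elsewhere, 4.22% (3.88 to 4.58) of kept and 2.91% (2.61 to 3.24) of lost regions, and in 5.38% of all regions elsewhere. At TSSs it was found in 8.16% (6.83 to 9.66) of gained, 1.84% (1.64 to 2.07) of kept and 2.62% (1.82 to 3.64) of lost regions. Gained regions that Sertoli cells shared held it in 10.7% (9.82 to 11.7) and those that Sertoli cells lacked in 7.63% (7.09 to 8.20). The same letters read backwards, ACTGGAAC, occurred in 1.25% of gained, 0.887% of kept and 0.937% of lost regions elsewhere. Median GC content of the central bases was 46.3% in gained, 50.7% in kept and 48.7% in lost regions. The promoter of Nr5a1 itself kept H3K4me3.

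Letters of other factors differed less. The GATA motif AGATAAG was found in 9.01% (8.53 to 9.51) of gained, 6.00% (5.60 to 6.43) of kept and 5.96% (5.52 to 6.41) of lost regions elsewhere. CTTTGAT, bound by TCF and LEF factors of the Wnt pathway, was found in 6.62% (6.20 to 7.06), 5.03% (4.66 to 5.42) and 5.19% (4.79 to 5.62). Its letters read backwards, TAGTTTC, also occurred more often in gained regions, in 3.92% (3.59 to 4.26), 2.79% (2.52 to 3.09) and 2.73% (2.44 to 3.05). For GATA the backwards letters GAATAGA were in 3.00%, 2.35% and 2.67%. Among gained regions, the TCF/LEF letters CTTTGAT were in 7.20% (6.67 to 7.75) of those absent from Sertoli cells and 5.37% (4.71 to 6.10) of those present in them. The forkhead letters GTAAACA, of the family of FOXL2, were in 5.60% (5.21 to 6.00) of gained, 4.57% of kept and 4.35% of lost regions. The SOX letters AACAAT, the AP-1 letters TGANTCA and the TEAD letters GGAATG were found in 13.7%, 8.97% and 18.4% of gained and 13.1%, 9.35% and 20.6% of lost regions. None of these motifs contains another.

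**Figure D5:**
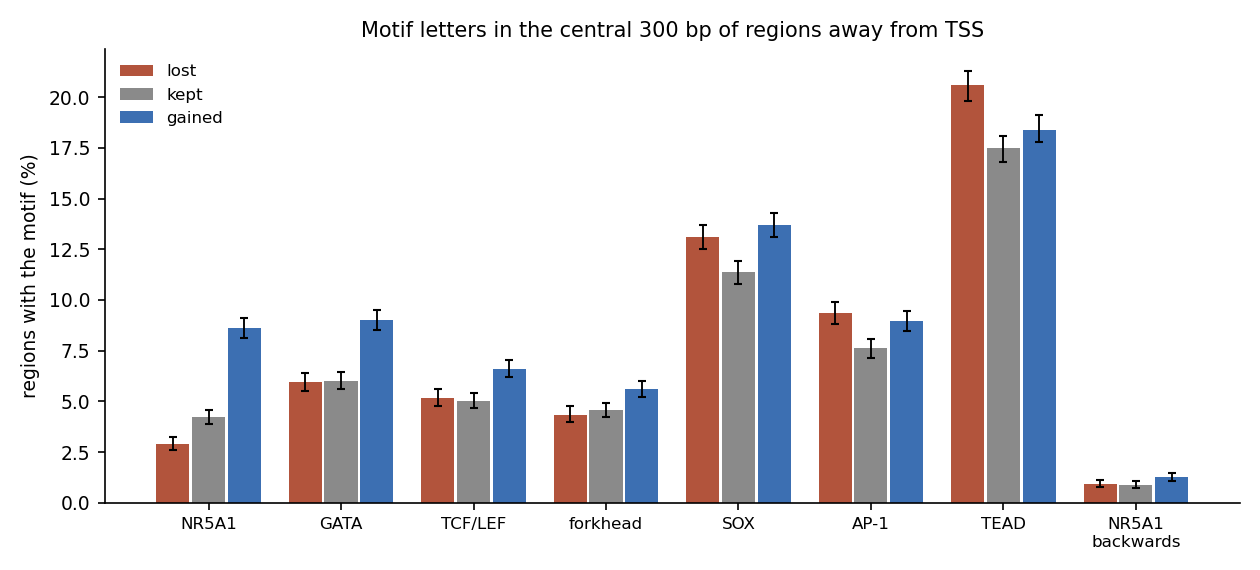
Share of lost, kept and gained regions elsewhere with each motif in their central 300 bp (y axis, percent), by motif (x axis). Error bars are 95% exact binomial intervals, and the last group is the NR5A1 motif read backwards. The NR5A1 motif has the widest gap between gained and lost regions relative to its level.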

How the data were processed

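Chromatin of sorted cells was immunoprecipitated for H3K4me3, H3K27me3 or H3 and sequenced, with 24 samples in all and 2 per group. The authors placed reads on mm9 using Bowtie, and peaks were called by HOMER findPeaks. The methods describe calling in each replicate, but the series description says that the deposited lists were made from both replicates, and the headers name 1 tag directory a list. They used H3 as input, and their processing notes also name SAMtools and Trim Galore (versions not given in the sources used here). Per the file headers, where a list has one, peak size was 1000 bp for H3K4me3 and 5000 bp for H3K27me3, with 4-fold enrichment over input and over the local background and p of 0.0001. The deposited score column is constant and was not used as a level. Deposited lists of the authors were used as peak coordinates only. For pregranulosa cells the files hold no header, which leaves depth and settings unknown.

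Overlapping peaks were joined on chromosomes 1 to 19, and regions, promoters and motifs were taken from mm9 with the GENCODE M1 annotation. Python 3.11.15, NumPy 2.4.6, SciPy 1.17.1, pysam 0.24.0 and matplotlib 3.10.9 were used, and the classification was checked on simulated regions. Members and lists were chosen with earlier results of these data known. Genes were named if they belonged to a list and were lost or gained, if they were among 11 ovary, testis and Wnt genes named whatever they did, among the 10 protein-coding promoters lost or gained with the largest cover, or among the 6 largest rises or falls of kept promoters, and the 6 widest lost and gained regions elsewhere were named by nearest gene. Other genes were chosen as examples after their values were seen. The H3 samples were not analysed here. Some genes that met the naming rule are not reported here.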

Additional observations from a re-analysis of the deposited data

Results flagged for a closer look

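Protein-coding promoters that moved in opposite directions in the 2 lineages were set apart, and this difference was not tested. H3K4me3 was gained in the XX and lost in the XY lineage at 17 genes, among them Slc2a2 and Dct. It was lost in the XX and gained in the XY lineage at 42 genes, among them Notch1, Hsd17b1 and Sycp3. More genes moved the same way in both lineages, with 142 gained in both and 76 lost in both. Over all 21418 protein-coding genes, 1.44% lost and 1.78% gained the mark in the XX lineage. In the XY lineage 2.10% lost and 2.80% gained it. The XY progenitor list is the shallowest of the H3K4me3 lists with known depth, and whether depth has a part in these counts was not tested.

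Chromosome X lies outside the autosomal comparison and also carried regions of each class. At TSSs 31 regions were lost (5.33%, 3.65 to 7.48), 551 kept and 36 gained (6.13%, 4.33 to 8.39). Elsewhere 117 were lost (36.2%, 31.0 to 41.7), 206 kept and 184 gained (46.9%, 41.9 to 52.0). On the autosomes 7.72% were lost and 8.80% gained at TSSs, and 46.1% were lost and 50.2% gained elsewhere.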

How the results depend on the processing

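No paired analysis was possible because both replicates are pooled in each peak list, and for the same reason leaving out a replicate could not be run. For 9 counts, 89 alternative values were computed, and 78 were within 1.5 times the value reported. With the widest 75% of regions, 6919 were lost, 8102 kept and 8460 gained elsewhere. With TSS ± 5 kb, 2502 regions were lost and 3142 gained at TSSs. With 1 TSS a gene these were 753 and 892, and with protein-coding transcript starts 653 and 765. With protein-coding genes only, 309 genes lost and 382 gained the mark. These alternatives differ by construction in how many regions, starts or genes enter. Chosen after seeing the data, gained regions absent from Sertoli cells within 100 kb of the gene were 14.6% pregranulosa-specific and 7.51% Sertoli-specific, and those wider than 1001 bp 17.9% and 7.20%. The lists give no replicate spread, no height and, for pregranulosa cells, no depth, so a narrow region absent from a list may be below its threshold.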
